A study of Mus musculus with 6 samples.

Results

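The Hox genes of the Hoxa, Hoxb, Hoxc and Hoxd clusters were examined in sorted Ebf2(GFP)+ and Ebf2(GFP)- cells of the mouse embryo. A member was any probe set that lists 1 gene whose symbol is Hox followed by a, b, c or d and a number, and where a gene had several such probe sets the one with the highest mean over the 6 arrays was taken. This gave 36 genes of 22180 measured, 9 of Hoxa, 10 of Hoxb, 9 of Hoxc and 8 of Hoxd. All 36 members were tested, with no filter on low values.

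The cells came from the dorsal body wall of 129SV embryos at E14.5, which were heterozygous, Ebf2(GFP)/+, for a green fluorescent protein (GFP) reporter at Ebf2, a transcription factor gene that the series describes as a marker of brown and beige fat precursors. Dissociated cells were stained and sorted. Both groups were positive for PDGFRα, a growth factor receptor found on mesenchymal cells, and GFP separated Ebf2(GFP)+:Pdgfra+ cells (n = 3 arrays) from Ebf2(GFP)-:Pdgfra+ cells (n = 3 arrays). GFP reports activity of the Ebf2 locus in the living cell, so either group may hold several mesenchymal cell types, and the labels do not say which embryos or litters were pooled. The replicates are therefore separate samples of unstated origin, and p-values measure only the spread between them.

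Hox genes encode homeodomain transcription factors that give cells their position along the head-to-tail axis. Within a cluster the genes lie in the order in which they are switched on, low paralog numbers being expressed earliest and furthest forward and high numbers later and further back, and genes with the same number in different clusters are paralogs. Posterior Hoxa and Hoxd genes also pattern the limb, and fibroblasts are known to keep a Hox pattern that reflects where in the body they arose.

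The sort and the tissue were checked before the members. Ebf2 was 10.2-fold higher in the GFP-positive arrays (log2 change 3.35 ± 0.24 SE, limma adjusted p = 0.000916), and Pdgfra differed by 0.19 ± 0.06 SE (adjusted p = 0.178). All 8 markers of mesenchymal fibroblasts lay above the 40th percentile of gene means (log2 6.78), the mark used here for a dim gene, and 3 of them, Lum, Thy1 and Twist1, were lower in the GFP-positive arrays. Markers of some other cell types differed between the groups at a limma adjusted p under 0.05. At this threshold 2.65% of all genes were higher and 3.84% lower. All 16 of 16 measured leukocyte and macrophage markers were lower in the GFP-positive arrays, where their mean log2 level was 6.96 to 7.86 against 9.01 to 9.86, and none was dim in both groups. All 12 of 12 cartilage markers were lower as well, at 9.05 to 9.36 against 10.71 to 10.87, and none of these was dim in both groups either. Of 11 measured markers of neurons and neural tube, where Hox genes are also expressed, 3 were lower and 1 was higher (7.14 to 7.20 against 7.37 to 7.49), and 4 were dim in both groups. Of 5 measured Schwann and neural crest markers 2 were lower (7.54 to 7.75 against 8.11 to 8.48), of 5 epithelial markers 1 was lower (7.27 to 7.47 against 7.40 to 7.49), and of 7 endothelial markers 1 was lower and 1 higher (9.17 to 9.35 against 9.04 to 9.65). None of 8 skeletal muscle markers passed (7.92 to 8.23 against 7.78 to 8.06), nor did the 1 measured erythroid marker, which was dim in both groups (6.39 to 6.64 against 6.38 to 6.48). Of the Schwann and the muscle markers 1 each was dim in both groups. The part of these other cells in the Hox differences was not tested, and in such mixed samples fewer cells of a type and less RNA per cell cannot be told apart.

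Hox genes passed the test in both directions. Genes of the forward and middle stretches of Hoxa and Hoxb (Hoxa3, Hoxa4, Hoxa5 and Hoxa6, with Hoxb3, Hoxb4 and Hoxb5) and the posterior gene Hoxd11 were higher in GFP-positive cells, whereas Hoxd8, Hoxb9, Hoxd1 and Hoxd9 were lower. Of 36 members 8 were higher and 4 lower at a limma adjusted p under 0.05, against 6.49% of all 22180 genes called in either direction, 2.65% higher and 3.84% lower. With the replicate number as a block the lower members were 7 and the higher ones 9, where 10.0% of all genes passed (4.55% higher and 5.49% lower). The changes ran from -1.61 to 1.25 on the log2 scale with a median of 0.07, beside 0.02 over all genes. The arrays of the 2 groups did not overlap for 19 of the 36 members, 12 of them higher and 7 lower in GFP-positive cells, where this held for 22.0% of all genes (12.3% higher and 9.78% lower). Centring each array on the median of the genes tested, an alternative chosen after seeing the data, left the Hox calls at 8 and 4 while the split over all genes went from 588 higher and 851 lower to 868 (3.91%) and 749 (3.38%).

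**Figure D1:**
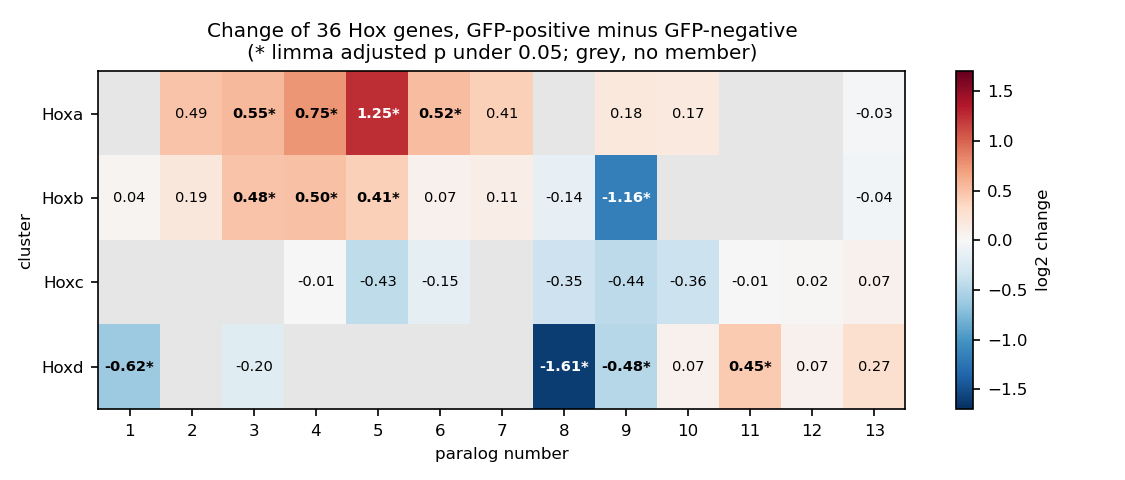
Log2 change (GFP-positive minus GFP-negative, 3 arrays each) of the 36 Hox genes, with clusters as rows and paralog numbers as columns; an asterisk marks a limma adjusted p under 0.05 and grey marks a position with no member. Called increases fill Hoxa3 to Hoxa6 and Hoxb3 to Hoxb5, and the largest decreases are Hoxd8 (-1.61) and Hoxb9 (-1.16).

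In the Hoxa cluster on chromosome 6 the called genes were Hoxa3, Hoxa4, Hoxa5 and Hoxa6. Of its 9 members 4 were higher and none was lower (1 to 5 higher with 1 array left out), beside 2.65% and 3.84% of all genes. Above 0 were 8 of 9 changes, and the median change was 0.49, beside 0.02 over all genes. Hoxa5, which is needed for the identity of cervical and upper thoracic segments and for lung development, had the largest increase of the 36 genes. Its log2 values were 9.20, 8.42 and 8.53 in GFP-negative replicates 1, 2 and 3 and 10.14, 9.98 and 9.77 in the GFP-positive ones. Every GFP-positive array lay above every GFP-negative array, with GFP-negative replicate 1 standing closest. The means were 9.96 ± 0.183 (SD, n = 3) and 8.72 ± 0.424 (SD, n = 3), a 2.37-fold difference (log2 change 1.25 ± 0.21 SE, 95% interval 0.74 to 1.75, adjusted p = 0.0192). Its call ended without GFP-negative replicate 2 or 3 or any 1 GFP-positive replicate, with an adjusted p of up to 0.0892, and its change stayed between 1.10 and 1.49.

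Hoxa4, a gene of cervical vertebral identity, had the smallest standard error of the 4 called Hoxa genes. GFP-negative arrays read 7.66, 7.71 and 7.71 and GFP-positive arrays 8.57, 8.35 and 8.41, so that the gap between the groups exceeded the spread within either. It was 1.68-fold higher (log2 change 0.75 ± 0.07 SE, adjusted p = 0.00218), and the call was kept without any 1 array (adjusted p of up to 0.014). Hoxa3, a regulator of thymus, parathyroid and neck development, read 7.66, 7.38 and 7.25 against 8.11, 7.90 and 7.92 and was 1.46-fold higher (0.55 ± 0.12 SE, adjusted p = 0.0413). Hoxa6, the next gene after Hoxa5 and a gene of thoracic segments, read 8.98, 8.68 and 8.62 against 9.34, 9.31 and 9.18 and was 1.43-fold higher (0.52 ± 0.11 SE, adjusted p = 0.0379). In both genes GFP-negative replicate 1 was the highest of its group. Both calls ended when GFP-negative replicate 2 or 3, or any 1 GFP-positive replicate, was left out (adjusted p of up to 0.149 for Hoxa3 and 0.147 for Hoxa6).

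The members at the ends of the called stretch had smaller or less even differences. Hoxa2, a selector gene of the second pharyngeal arch and the hindbrain, read 10.39, 10.06 and 9.97 against 10.88, 10.53 and 10.48. The groups did not overlap, and its change of 0.49 ± 0.15 SE did not pass (adjusted p = 0.121) but passed with the replicate block (0.00636). Hoxa7 read 9.08, 8.70 and 8.61 against 9.21, 9.21 and 9.19, with a change of 0.41 ± 0.12 SE (adjusted p = 0.119, or 0.0106 without GFP-negative replicate 1). Toward the posterior end Hoxa9 and Hoxa10 had changes of 0.18 ± 0.07 SE and 0.17 ± 0.06 SE (adjusted p = 0.269 and 0.185). Hoxa13, a gene of the digits and the hindgut, had a change of -0.03 with a 95% interval of -0.19 to 0.13. Described across the 9 Hoxa genes, change and paralog number had a Spearman correlation of -0.77; the points share the same 6 arrays.

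The Hoxb cluster on chromosome 11 held both directions. Of its 10 members 3 were higher and 1 lower, beside 2.65% and 3.84% of all genes, and the median change was 0.09. Hoxb4, which is known for its effect on blood stem cell growth, read 7.26, 7.23 and 7.35 in GFP-negative and 7.89, 7.83 and 7.61 in GFP-positive arrays. It was 1.41-fold higher (0.50 ± 0.09 SE, adjusted p = 0.0212). Hoxb3, a hindbrain and neck gene, read 8.57, 8.36 and 8.45 against 9.08, 8.94 and 8.78 and was 1.39-fold higher (0.48 ± 0.09 SE, adjusted p = 0.0318). The groups were separate for both genes, with a gap smaller than the range of the GFP-positive arrays. Hoxb4 no longer passed without GFP-negative replicate 1 or 2 or GFP-positive replicate 1 or 2 (up to 0.0928), and neither did Hoxb3 without any 1 GFP-negative replicate or GFP-positive replicate 1 or 2 (up to 0.119).

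Hoxb5, a gene that sets the level of the shoulder girdle, had the weakest call. Its arrays read 8.02, 7.86 and 7.94 against 8.52, 8.26 and 8.25, which made it 1.33-fold higher (0.41 ± 0.09 SE, adjusted p = 0.0486). Another Hoxb5 probe set, with a mean log2 value of 7.74 against 8.14, differed by 0.01 ± 0.08 SE (adjusted p = 0.971 when probe sets were not reduced to 1 a gene, where the brighter one had 0.0517). The call ended without any 1 array (up to 0.152), and it also ended with the mean of both probe sets (change 0.209, adjusted p = 0.0554), with eBayes using a trend (0.0554) and with robust eBayes (0.0507).

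Hoxb9, a gene of thoracic and rib patterning, was the one Hoxb member that was lower. Its values were 9.76, 9.72 and 9.42 in GFP-negative replicates 1, 2 and 3 and 8.33, 8.68 and 8.42 in the GFP-positive ones. The lowest GFP-negative array stood well above the highest GFP-positive array. The means were 9.63 ± 0.188 (SD, n = 3) and 8.48 ± 0.185 (SD, n = 3), a 2.23-fold decrease (log2 change -1.16 ± 0.13 SE, 95% interval -1.46 to -0.86, adjusted p = 0.00392), and the call was kept without any 1 array (up to 0.0249). Hoxb7, Hoxb6, Hoxb2 and Hoxb1 did not pass and had changes of 0.11, 0.07, 0.19 and 0.04. Hoxb8 and Hoxb13 had changes of -0.14 and -0.04 and were dim in both groups. Over the 10 Hoxb genes, these dim ones included, change and paralog number had a Spearman correlation of -0.61, as a description.

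None of the 9 Hoxc members on chromosome 15 passed limma's test, beside 6.49% of all genes. With the replicate block 3 were lower, beside 5.49% of all genes. The changes of the 9 members ran from -0.44 to 0.07 with a median of -0.15, and 7 of 9 were below 0. Hoxc9, a gene of thoracic motor neuron identity that is also used as a marker of white fat, read 7.75, 7.77 and 7.47 in GFP-negative and 7.18, 7.38 and 7.11 in GFP-positive arrays. The groups did not overlap, and its change of -0.44 ± 0.11 SE had an adjusted p of 0.0683, or 0.0166 with the replicate block, 0.0425 without GFP-negative replicate 3 and 0.0487 without dim probe sets. Hoxc5 read 8.92, 8.58 and 8.42 against 8.34, 8.23 and 8.06, a change of -0.43 ± 0.14 SE (adjusted p = 0.16, or 0.0224 with the block). Hoxc10, a gene of lumbar and hindlimb identity, read 7.71, 7.83 and 7.49 against 7.34, 7.56 and 7.06. GFP-positive replicate 2 lay above GFP-negative replicate 3, so its groups overlapped, and its change was -0.36 ± 0.14 SE (adjusted p = 0.257, or 0.0211 with the block). In each of the 3 genes that passed with the block, the GFP-positive array was the lower one in 3 of 3 replicate pairs. The same held for Hoxc6 and Hoxc8, which did not pass with the block. The 3 genes were picked by that test, so the pairs add no support to it.

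Hoxc8, another gene of thoracic identity with a known link to white fat, had a change of -0.35 ± 0.11 SE without overlap of the groups (adjusted p = 0.131, or 0.0642 with the block). Hoxc6 and Hoxc4 had changes of -0.15 (95% interval -0.42 to 0.12) and -0.01 (-0.21 to 0.19). Hoxc11, Hoxc12 and Hoxc13 were dim in both groups, with changes between -0.01 and 0.07. Hoxc carried the largest changes in its middle rather than at an end. The Spearman correlation of change with paralog number over its 9 genes was 0.55, as a description. That value counts the dim Hoxc11, Hoxc12 and Hoxc13, so its sign need not hold for the Hoxc members above the dim mark.

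The Hoxd cluster on chromosome 2 held the largest decrease of the 36 genes and a called increase further back. Of its 8 members 3 were lower and 1 higher, beside 3.84% and 2.65% of all genes, with a median change of -0.06. Hoxd8, a gene of the trunk, read 10.09, 10.11 and 9.80 in GFP-negative replicates 1, 2 and 3 and 8.28, 8.48 and 8.42 in the GFP-positive ones. The gap between the groups was several times the range within either. The means were 10.0 ± 0.172 (SD, n = 3) and 8.39 ± 0.100 (SD, n = 3), a 3.05-fold decrease (log2 change -1.61 ± 0.10 SE, 95% interval -1.85 to -1.37, adjusted p = 0.000565). Without any 1 array its adjusted p was at most 0.00589.

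Hoxd1, at the forward end of the cluster and known in mouse for its role in pain-sensing neurons, read 7.20, 6.79 and 7.14 against 6.32, 6.48 and 6.48 and was 1.53-fold lower (-0.62 ± 0.12 SE, adjusted p = 0.0287). Hoxd9, next to Hoxd8 and a gene of the limb and lower trunk, read 6.82, 7.04 and 6.77 against 6.49, 6.39 and 6.31 and was 1.40-fold lower (-0.48 ± 0.09 SE, adjusted p = 0.0268). Both genes were separate between the groups, and both lay under the dim mark in GFP-positive cells, where values near background can understate a fold. Hoxd1 no longer passed without GFP-negative replicate 1 or 3 or any 1 GFP-positive replicate (up to 0.117). Hoxd9 no longer passed without GFP-negative replicate 1 or any 1 GFP-positive replicate (up to 0.103).

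Hoxd11, a gene of the forearm and the kidney, was higher. Its arrays read 7.47, 7.44 and 7.37 against 8.01, 7.82 and 7.80, a 1.37-fold difference (0.45 ± 0.07 SE, adjusted p = 0.0169) that ended without GFP-negative replicate 2 or 3 or GFP-positive replicate 2 (up to 0.0593). Hoxd10, between the genes that were lower and the one that was higher, had a change of 0.07 with a 95% interval of -0.14 to 0.29. Hoxd3 had a change of -0.20 ± 0.11 SE (adjusted p = 0.426). Hoxd12 and Hoxd13 were dim in both groups, with changes of 0.07 and 0.27. Change and paralog number had a Spearman correlation of 0.76 over the 8 Hoxd genes, these dim ones included, as a description. It is opposite in sign to that over Hoxa and Hoxb, and the difference between clusters was not tested.

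**Figure D2:**
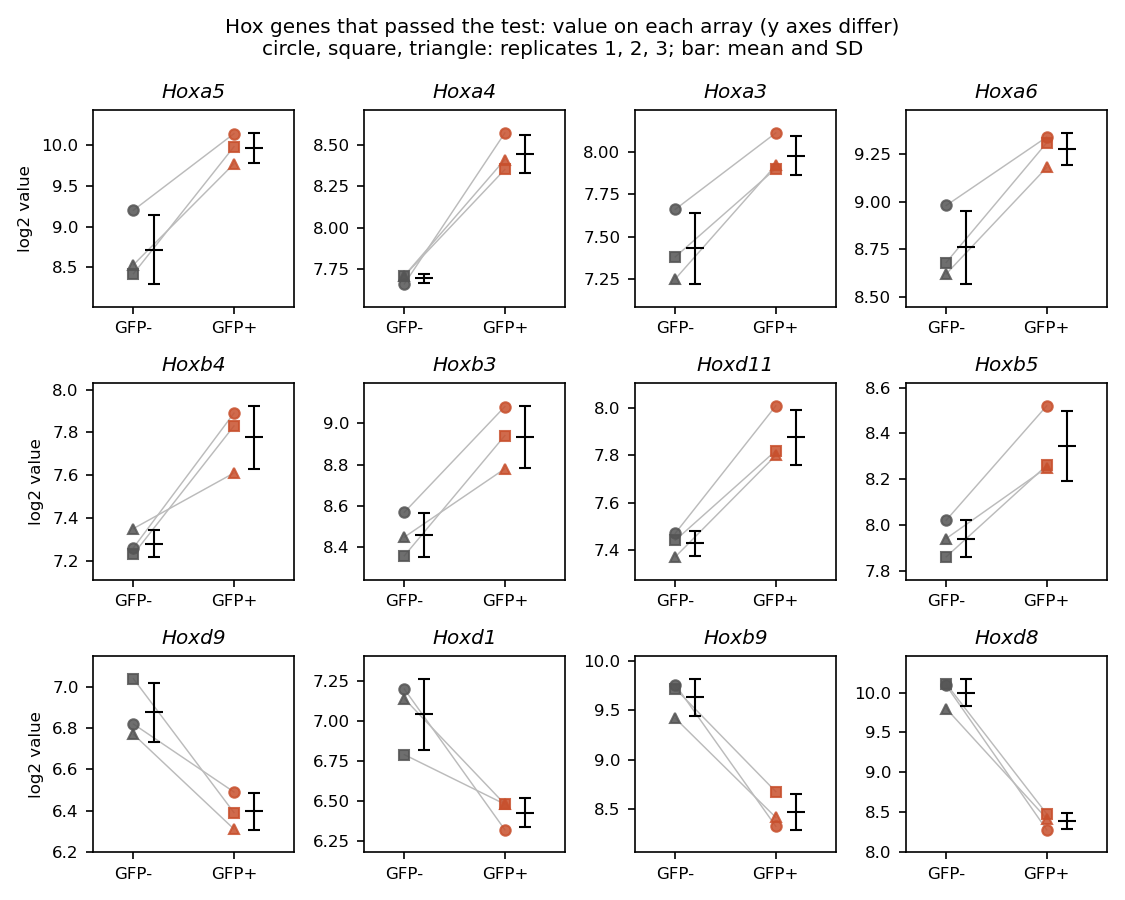
Log2 value on each of the 6 arrays for the 12 Hox genes that passed, from the largest increase (Hoxa5) to the largest decrease (Hoxd8); symbols mark replicates 1, 2 and 3, grey lines join equal replicate numbers, and black bars give the mean and SD of 3 arrays. The y axes differ between panels and do not start at 0, and in each panel the arrays of the groups do not overlap.

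The sequence around the start of 2 neighbouring genes that rose, Hoxa5 and Hoxa6, and of 2 neighbouring genes that fell, Hoxd8 and Hoxd9, is shown because these pairs moved together. The RefSeq promoter table of build GRCm38.p6 gave 250 bases before to 50 after a start for 20 of the 36 members (22 promoters). Capitals mark matches, on either strand, to the EBF motif CCCNNGGG, to its longer form with T before and A after these letters, the HOX and PBX motif TGATNNAT, the MEIS motif TGACAG or the CDX motif TTTATG. The short EBF motif lies inside the long one.
Hoxa5, chr6:52204538-52204837, minus strand: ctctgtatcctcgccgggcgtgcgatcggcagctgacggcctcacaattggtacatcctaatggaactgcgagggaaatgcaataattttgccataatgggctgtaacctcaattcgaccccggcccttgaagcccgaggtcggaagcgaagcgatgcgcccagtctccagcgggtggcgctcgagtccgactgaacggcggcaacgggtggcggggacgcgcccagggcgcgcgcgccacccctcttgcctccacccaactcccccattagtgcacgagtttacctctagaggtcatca
Hoxa6, chr6:52208623-52208922, minus strand: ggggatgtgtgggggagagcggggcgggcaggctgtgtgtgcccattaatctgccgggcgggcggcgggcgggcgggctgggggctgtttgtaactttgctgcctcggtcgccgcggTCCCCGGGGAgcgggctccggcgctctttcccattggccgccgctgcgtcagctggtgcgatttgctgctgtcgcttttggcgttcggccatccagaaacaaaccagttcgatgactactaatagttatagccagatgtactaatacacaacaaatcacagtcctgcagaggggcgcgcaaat
Hoxd8, chr2:74704365-74704664, plus strand: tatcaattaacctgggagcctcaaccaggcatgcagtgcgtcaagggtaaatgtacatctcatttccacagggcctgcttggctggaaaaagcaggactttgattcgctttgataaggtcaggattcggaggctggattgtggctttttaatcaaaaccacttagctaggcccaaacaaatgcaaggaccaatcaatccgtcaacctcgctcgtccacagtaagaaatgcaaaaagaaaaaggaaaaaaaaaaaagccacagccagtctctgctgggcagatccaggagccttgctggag
Hoxd9, chr2:74697513-74697812, plus strand: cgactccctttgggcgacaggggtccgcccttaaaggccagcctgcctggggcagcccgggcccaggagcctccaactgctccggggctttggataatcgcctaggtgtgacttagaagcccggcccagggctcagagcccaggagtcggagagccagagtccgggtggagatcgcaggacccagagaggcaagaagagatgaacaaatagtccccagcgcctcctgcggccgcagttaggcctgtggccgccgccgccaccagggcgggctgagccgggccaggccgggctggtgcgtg

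Of the promoters shown, that of Hoxa6 held the long EBF motif and the other 3 held none of the motifs searched. Among the 22 Hox promoters 4 held the short EBF motif (Hoxa6, Hoxa7, Hoxc4 and Hoxd13, 18.2%), beside 13.7% of all 32851 promoters of the same length, and 1 held the long form (4.55% beside 0.904%). The HOX and PBX motif was in 4 of 22 (18.2% beside 8.85%), the CDX motif in 4 of 22 (18.2% beside 11.9%) and the MEIS motif in 2 of 22 (9.09% beside 19.2%). Hox promoters held a median of 17 CG dinucleotides, beside 7 over all promoters, and ranged from 4 (Hoxa9 and the outer Hoxd11 start) to 45 (Hoxa13). That of Hoxd8 held 6 and that of Hoxa5 held 29. A match is a description of the letters and was not compared with any binding data.

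Read by paralog number, the called increases lay mainly in groups 3, 4 and 5. In paralog group 3 Hoxa3 and Hoxb3 were higher and Hoxd3 had a change of -0.20. In group 4 Hoxa4 and Hoxb4 were higher and Hoxc4 had -0.01, and in group 5 Hoxa5 and Hoxb5 were higher and Hoxc5 had -0.43. In group 9 Hoxb9 and Hoxd9 were lower, Hoxc9 had -0.44 and Hoxa9 had 0.18. Over paralogs 1 to 4, 4 of 10 members were higher and 1 lower, and over paralogs 5 to 8, 3 of 11 were higher and 1 lower (2 lower with the replicate block). Over paralogs 9 to 13, 1 of 15 was higher and 2 were lower (4 lower with the block), and 6 of these 15 were dim in both groups. Among all genes 2.65% were higher and 3.84% lower, or 4.55% and 5.49% with the block. Several of these counts are of 1 or 2 genes, and differences between paralogs or paralog groups were not tested.

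The changes were compared with genes around and inside the clusters, taken from RefSeq gene order (assembly GRCm38.p6). Of 40 measured neighbours, 5 on each side of each cluster, none was higher and 1 was lower. Over all genes 2.65% were higher and 3.84% lower, and 14 of the 40 neighbours were dim in both groups. The lower neighbour was Atp5g2, a subunit gene of mitochondrial ATP synthase beside Hoxc (-0.33, limma adjusted p = 0.0361). This call ended without any 1 array (up to 0.136). Evx1 and Evx2, homeobox genes at the posterior ends of Hoxa and Hoxd, had changes of 0.09 and -0.14, and Evx1 was dim in both groups. Skap2, which encodes an adaptor protein and borders the forward end of Hoxa, read 0.49 higher (adjusted p = 0.0671, or 0.046 with the replicate block). Of 9 measured genes between the outer Hox genes of the clusters 1 passed and 6 were dim in both groups. It was Hoxaas3, a long noncoding RNA gene whose span overlaps Hoxa5 and Hoxa6. It read 8.04, 7.85 and 7.88 in GFP-negative and 9.03, 8.76 and 8.63 in GFP-positive arrays and was 1.84-fold higher (0.88 ± 0.11 SE, adjusted p = 0.00657). The sources used here do not say how probes of overlapping genes were assigned to a strand, so signal of Hoxaas3 and of Hoxa5 or Hoxa6 may not be separate. Gm53, a noncoding gene between Hoxb9 and Hoxb13, read 0.46 lower, as Hoxb9 did (adjusted p = 0.0534, or 0.0101 with the block). Hotair in Hoxc and the microRNA genes Mir196a-1, Mir196a-2, Mir615 and Mir10b were dim in both groups, with changes between -0.16 and 0.11.

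**Figure D3:**
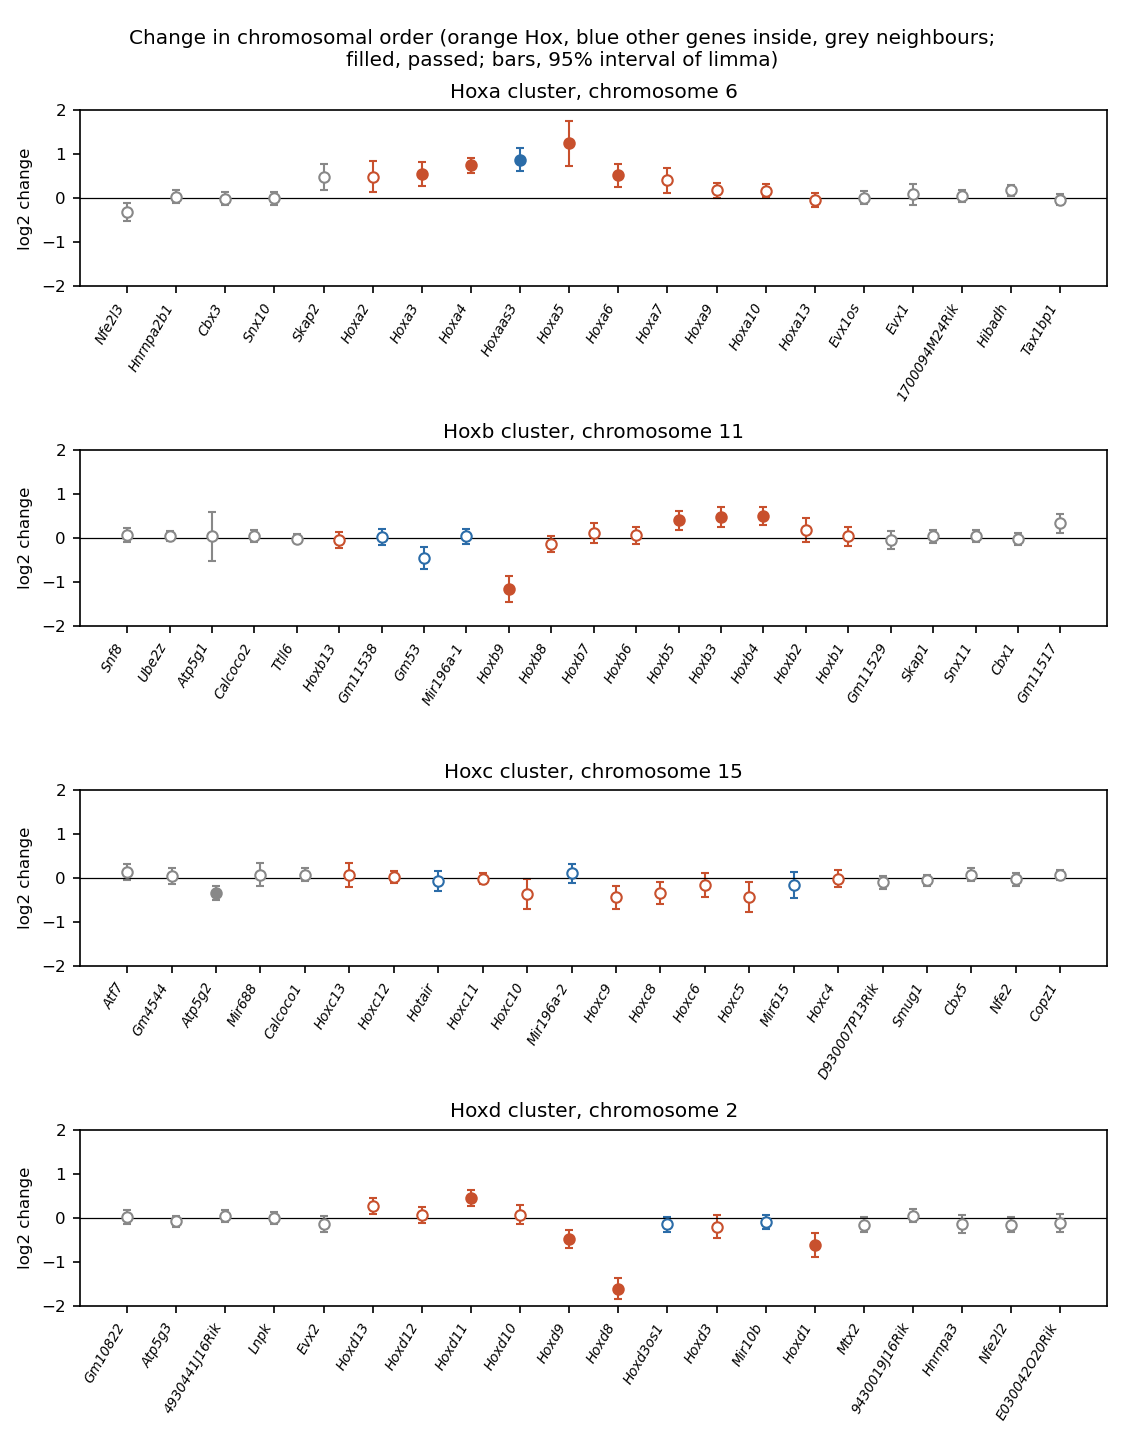
Log2 change with the 95% interval of limma for each measured gene of the 4 clusters and 5 neighbours on each side, in chromosomal order and not to scale; orange marks Hox genes, blue other genes inside a cluster, grey neighbours, and filled points passed the test. Called genes lie side by side from Hoxa3 to Hoxa6 with Hoxaas3 among them, and outside the clusters 1 gene, Atp5g2, is filled.

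Genes that act with or upstream of Hox genes were read against the 6.49% of all genes called. In the list of TALE cofactors, homeodomain proteins that bind DNA together with Hox proteins, 1 of 10 measured members was higher and none lower, with a median change of 0.08. Meis3 was 1.23-fold higher (0.29 ± 0.06 SE, adjusted p = 0.0362), a call that ended without any 1 array (up to 0.113). Pknox2 had a change of 0.41 ± 0.10 SE (adjusted p = 0.072, or 0.041 with the replicate block). Meis1 and Meis2 had changes of 0.12 and 0.09, and Pbx3 of -0.07. None of the 9 ParaHox and Hox-linked homeobox genes passed with or without the block (median 0.02), but 7 of them were dim in both groups. Polycomb and Trithorax genes maintain silent and active Hox states. None of the 24 measured passed with or without the block (median 0.02), and 1 of these was dim in both groups.

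Among 19 measured other regulators, 1 was higher and none lower, with a median of -0.04, beside 2.65% and 3.84% of all genes. With the block 3 were higher and 1 lower, beside 4.55% and 5.49%. Aldh1a3, an enzyme that makes retinoic acid, a signal that switches on forward Hox genes, read 8.98, 9.02 and 9.28 in GFP-negative and 10.99, 10.90 and 10.87 in GFP-positive arrays. It was 3.55-fold higher (1.83 ± 0.09 SE, adjusted p = 0.000324), also without any 1 array (up to 0.00495). The other genes of retinoic acid synthesis in this list, Aldh1a1 and Aldh1a2, did not pass (limma adjusted p = 0.592 and 0.968). Their changes were -0.50 ± 0.39 SE and 0.02 ± 0.13 SE. Cyp26a1, Cyp26b1 and Cyp26c1, which encode enzymes that break retinoic acid down, had changes of 0.20, -0.41 and -0.11, and the receptor genes Rara and Rarg had 0.16 and -0.10, none of which passed with or without the block. The retinoic acid receptor gene Rarb and Gdf11, a ligand of posterior patterning, had changes of 0.26 and 0.29 and passed only with the block (adjusted p = 0.0459 and 0.0418, against 0.144 and 0.103). Zbtb16, a repressor that acts on Hox genes in the limb, had a change of -0.35 (adjusted p = 0.305, or 0.0333 with the block).

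In the list of limb and flank position genes 1 of 17 measured members was higher and 2 were lower, with a median of -0.05. With the block 3 were higher and 3 lower. The shares of all genes were 2.65% and 3.84%, or 4.55% and 5.49% with the block. Tbx3, a limb and flank transcription factor gene, was 1.56-fold higher (0.64 ± 0.11 SE, adjusted p = 0.0191), which ended without GFP-negative replicate 2 or 3 or GFP-positive replicate 1 or 2 (up to 0.086). Sall1, a zinc finger gene of limb and kidney development, was lower (-0.50 ± 0.06 SE, adjusted p = 0.00689), and its GFP-positive mean of 6.45 was under the dim mark. Tbx15, a gene of dorsal skin and skeleton, was lower by a small margin (-0.25 ± 0.05 SE, adjusted p = 0.0375, up to 0.135 with an array left out, where each omission ended the call). Tbx5, the forelimb gene, and Pitx1 and Tbx4, hindlimb genes, had changes of 0.37, 0.33 and -0.05 and none of these passed.

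**Figure D4:**
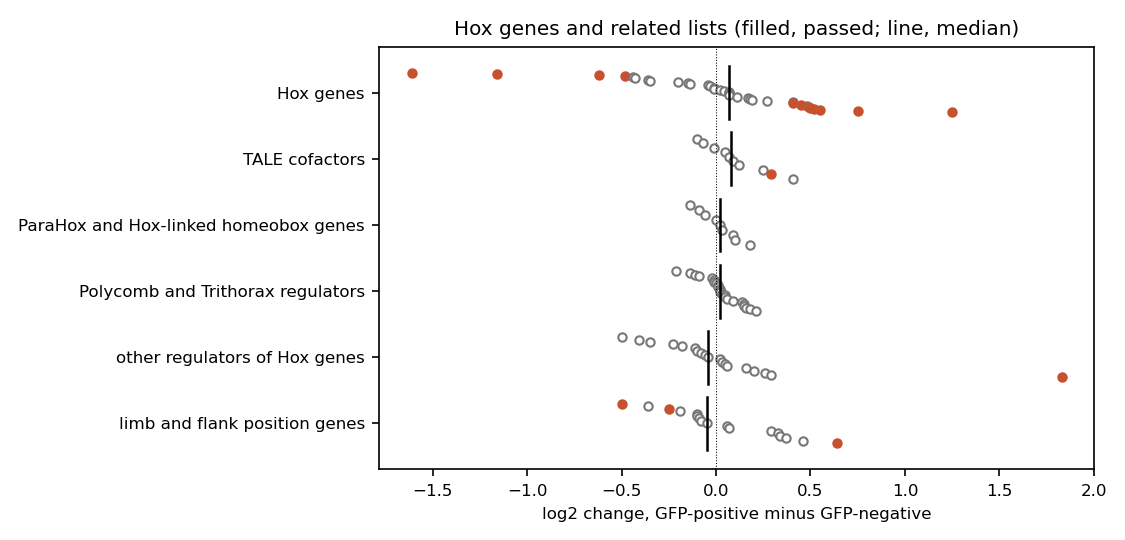
Log2 change (GFP-positive minus GFP-negative) of the 36 Hox genes and of the members of 5 related lists; filled points passed limma's test and the black line is the list's median. Hox genes spread from -1.61 to 1.25, and in the related lists the point furthest out is Aldh1a3 at 1.83.

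Across arrays left out and processing alternatives, 3 of the 12 Hox calls were kept throughout: Hoxa4, Hoxb9 and Hoxd8, each in 16 of 16 alternatives. The other 9 calls kept their direction in every alternative run on them and ended in between 3 and 10 of them. The stricter thresholds are given apart. At an adjusted p under 0.01, 1 Hox gene was higher, Hoxa4, and 2 were lower, Hoxb9 and Hoxd8, where 0.938% of all genes were higher and 1.49% lower. At an adjusted p under 0.05 and at least 2-fold, 1 was higher, Hoxa5, and Hoxb9 and Hoxd8 were again lower, with 0.352% and 1.39% of all genes. Without dim probe sets 8 Hox genes were higher and 3 lower, where 5.03% and 6.42% of the genes left were.

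The number of Hox calls depended on single arrays, and so did the share of all genes called. Without GFP-negative replicate 1, 2 or 3 the higher Hox genes numbered 6, 1 and 2, with 1.95%, 1.61% and 1.99% of all genes higher. Without GFP-positive replicate 1, 2 or 3 they numbered 2, 1 and 4, with 1.09%, 1.17% and 1.38%. The lower Hox genes numbered 2, 4 and 4 with a GFP-negative replicate left out, beside 2.61%, 2.96% and 2.82% of all genes. With GFP-positive replicate 1, 2 or 3 left out 2 were lower each time, beside 1.75%, 1.83% and 2.06%. Hoxa4 was among the higher genes and Hoxb9 and Hoxd8 among the lower ones in all 6 of these fits.

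**Figure D5:**
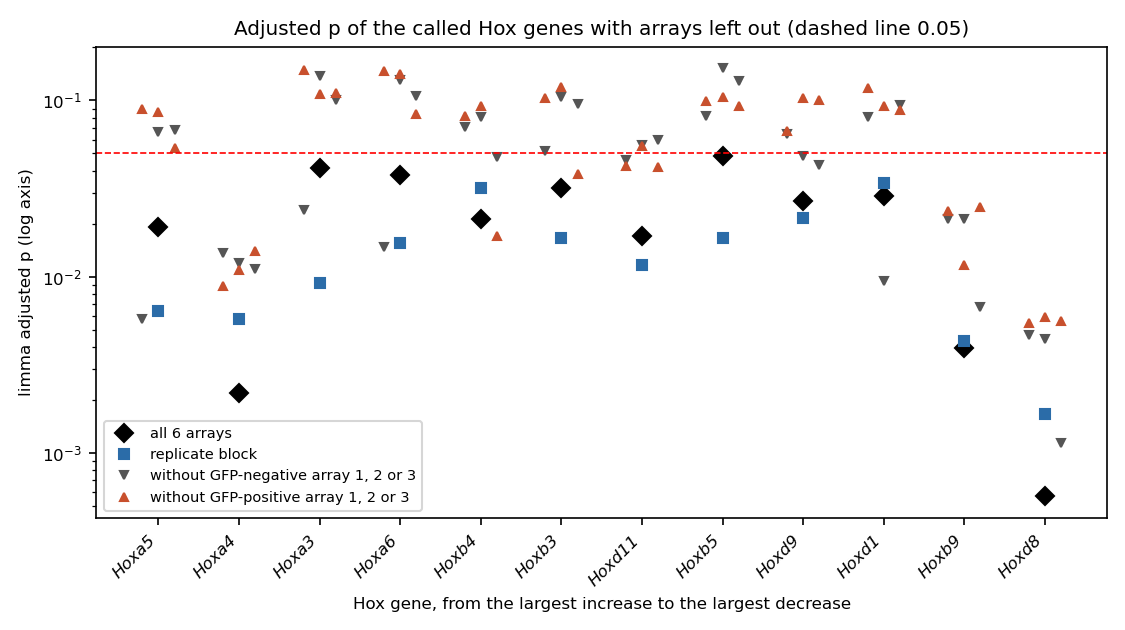
Limma adjusted p (log axis) of the 12 called Hox genes with all 6 arrays (diamonds), with the replicate block (squares) and with 1 array left out (triangles, from replicate 1 to 3 within a gene); the dashed line is 0.05. All points of Hoxa4, Hoxb9 and Hoxd8 lie under the line, and the other 9 genes have points on both sides of it.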

How the data were processed

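RNA of 6 sorted cell samples was hybridised to Affymetrix arrays. The deposited table holds 1 log2 value for each probe set and array. RMA and limma are the tools listed per the submitters' processing notes, without versions or filters. The log2 scale was read from the values (3.41 to 14.32, array medians 6.657 to 6.712). RMA equalises the arrays' distributions, which can hide a change common to most transcripts. With 3 arrays a group, precision is limited by that number.

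The platform table lists 1 gene for 23521 of 41345 probe sets, which gave 22180 genes. Only these were named, and for genes with several probe sets the brightest was used. Gene order came from RefSeq (GRCm38.p6). Groups were compared by limma 3.58.1 (lmFit, then eBayes, in R version 4.3.3) on all 6 arrays. Benjamini-Hochberg adjustment was made over all genes, with a threshold of 0.05. The method was also run on simulated data whose noise was independent between arrays, so without any pairing of replicates. That run cannot show how the method behaves if same-numbered arrays are paired, and no result of it is used here. Errors of changes are moderated standard errors.

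Members, lists and tests were chosen with earlier results of these data known. Array values are given for members that passed and the 5 largest changes among the rest, and from each related list at most 4 called genes; other genes named for their roles, including those with values that did not pass, were chosen after their values were seen. Deviations of same-numbered arrays from their group means correlated at 0.314 to 0.519 and of differently numbered ones at -0.384 to -0.0243. Such deviations cancel within a group, so these correlations are not independent of each other. A pairing by replicate number was inferred from the data alone. The labels do not say that equal numbers share a source, so the main test left the numbers out and the replicate block was an alternative. The comparison was repeated with the replicate block, after quantile normalization or median centring (over probe sets or over genes), without dim probe sets, with other probe set rules, with trend or robust eBayes, with array weights, at stricter thresholds and without each array. The 95% intervals are limma's.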

Additional observations from a re-analysis of the deposited data

How the results depend on the processing

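With the replicate block, 9 Hox genes were higher and 7 lower; the lower counts became 3 in Hoxc, 2 over paralogs 5 to 8 and 4 over paralogs 9 to 13, through Hoxc5, Hoxc9 and Hoxc10, and the block ended no Hox call. It also added the higher gene Hoxa2. Leaving out dim probe sets gave 8 higher and 3 lower genes, with 1 lower in Hoxc, 1 in Hoxd and 0 over paralogs 1 to 4, since Hoxd1 and Hoxd9 were not tested there. At an adjusted p under 0.01, 1 Hox gene was higher (1 in Hoxa, 0 in Hoxb, 0 in Hoxd; 1 over paralogs 1 to 4, 0 over 5 to 8 and 0 over 9 to 13) and 2 were lower (1 in Hoxd, 0 over paralogs 1 to 4, 1 over 9 to 13). At an adjusted p under 0.05 and at least 2-fold, 1 was higher (1 in Hoxa, 0 in Hoxb, 0 in Hoxd; 0 over paralogs 1 to 4, 1 over 5 to 8, 0 over 9 to 13) and 2 were lower (1 in Hoxd, 0 over paralogs 1 to 4, 1 over 9 to 13). With 1 array left out, 1 to 6 Hox genes were higher and 2 to 4 lower, where fewer samples also lowered the calls over all genes. The higher counts ran from 1 to 5 in Hoxa, 0 to 2 in Hoxb, 0 to 0 in Hoxc and 0 to 1 in Hoxd, and the lower ones 0 to 0, 1 to 1, 0 to 1 and 1 to 3. By paralogs, 1 to 3, 0 to 3 and 0 to 1 were higher and 0 to 1, 1 to 1 and 1 to 3 lower for numbers 1 to 4, 5 to 8 and 9 to 13.

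No called Hox gene changed sign. Uncalled genes with changes near 0 did: Hoxc4 was 0.002 after quantile normalization, 0.000 after median centring, 0.045 after centring over genes, 0.004 with array weights and -0.081 to 0.063 with 1 array left out. Hoxc11 was 0.001 after median centring and 0.046 after centring over genes, Hoxa13 was 0.026 and Hoxb13 was 0.020 after centring over genes. With 1 array left out Hoxc11 ran from -0.025 to 0.010, Hoxa13 from -0.071 to 0.012, Hoxb13 from -0.095 to 0.011, Hoxb1 from -0.034 to 0.114, Hoxc12 from -0.013 to 0.055 and Hoxc13 from -0.057 to 0.135. The cause of these changes was not tested. The median of all genes was 0.016 as deposited and 0.006 to 0.072 under the other scalings. Signals near background limit what can be said of the 7 members that were dim in both groups.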
